A study of Homo sapiens with 16 samples.

Results

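The libraries described here are the 8 vehicle controls of a series of 16 ATAC-seq libraries: 4 from cells kept in DMSO for 24 h and 4 from cells kept in DMSO for 3 h. They were chosen by their labels alone, with no measured value. Each time held 2 libraries of DND41 and 2 of MOLT4, established lines from human T-cell leukaemias, grown in RPMI-1640 with serum. The other 8 libraries came from the same lines given 100 nM ACBI-1, which sends SMARCA2, SMARCA4 and PBRM1 of the SWI/SNF chromatin remodellers for degradation, over 24 h or 3 h. Separate cultures are not stated for the pair of libraries of a line and time, and the spread behind each p-value may thus be technical.

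DMSO is the solvent in which such compounds are dissolved, and cells given DMSO alone show how accessibility differs between 2 harvest times when no drug is present. In ATAC-seq the Tn5 transposase cuts where nucleosomes leave DNA exposed, mostly at promoters, enhancers and insulators, and a peak caller reports stretches where cuts pile up. A called peak is broader where the open stretch is longer, where the signal stands further above the background, or where the caller's settings are more permissive, so width carries all of these. Only the position and width of each peak were used here, and read depth is unknown.

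In 4 of the 8 DMSO libraries the title and the cell line field disagreed on the line, and by the field time and line would coincide. The titles were followed instead. The line code inside the peak names matched the title in 8 of 8 libraries, and the closest library of another group came from the line of the title in 8 of 8 cases and from that of the field in 0. All 4 lists of 24 h named their peaks with p03, and all 4 of 3 h with p04. What p03 and p04 stand for is not given in these sources. Hours in DMSO, preparation and a possible difference in peak calling therefore cannot be told apart in any comparison of the times.

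Peak lists of the 24 h libraries were not longer than those of 3 h. In DND41 they held 46712 and 42684 peaks at 24 h, against 45942 and 39123 at 3 h, and the times overlapped. In MOLT4 they held 39679 and 39117 peaks at 24 h, against 45098 and 42051 at 3 h, so both 24 h libraries lay below both 3 h libraries. Over both lines the log2 ratio of 24 h to 3 h was -0.03 (SE 0.07), and the change of -2.39% was not larger than the spread (two-sided exact permutation test within lines, p = 0.722). The direction was 5.32% in DND41 and -9.53% in MOLT4, a difference between lines that did not exceed the spread either (exact permutation p = 0.222). The 36 exchanges of time labels within both lines allow no p below 0.0556, and those within 1 line none below 0.333.

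The 24 h peaks were broader. The median width of a list was 348 and 360 bp in DND41 and 443 and 427 bp in MOLT4 at 24 h, against 328 and 282 bp in DND41 and 318 and 341 bp in MOLT4 at 3 h. All 4 libraries of 24 h lay above all 4 of 3 h. The log2 ratio was 0.31 (SE 0.06), a rise of 23.98%, and its p by exact permutation, 0.0556, is the smallest that exchanges within lines can give. Without peaks under 163 bp, the longest of the 8 shortest peaks, the log2 ratio was 0.15 (exact permutation p = 0.111). The lists covered 21.5 and 19.9 Mb in DND41 and 20.9 and 19.9 Mb in MOLT4 at 24 h, against 18.996 and 14.2 Mb in DND41 and 18.3 and 18.0 Mb in MOLT4 at 3 h. Here too no 24 h library was as low as any 3 h library, with a log2 ratio of 0.25 (SE 0.11; exact permutation p = 0.0556). Without replicate 2 of DND41 at 3 h, the library with the narrowest peaks, that ratio was 0.15.

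**Figure D1:**
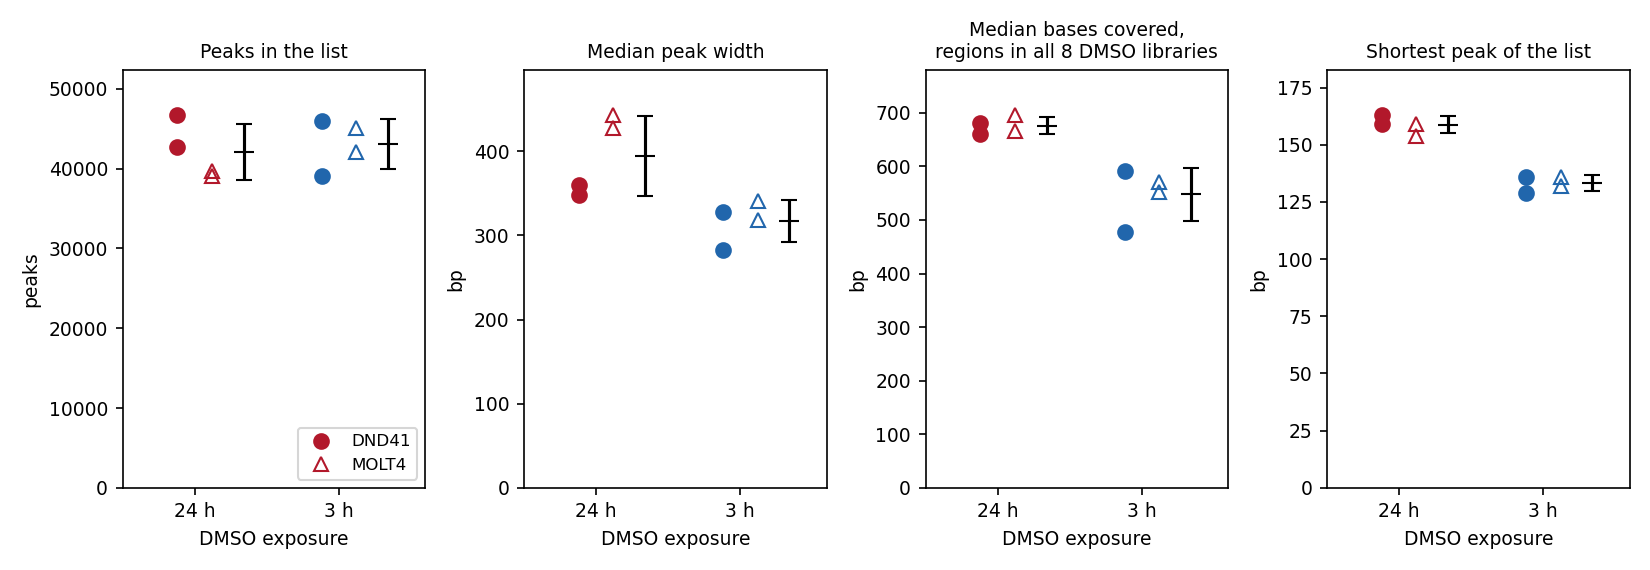
Number of peaks, median peak width, median bases covered in regions found in all 8 DMSO libraries, and shortest peak of each list, with 24 h left of 3 h. Each point is 1 library, filled circles are DND41 and open triangles MOLT4, and bars are the mean ± SD of 4 libraries. Peak numbers of the times overlap, at 42048 ± 3481 for 24 h and 43054 ± 3108 for 3 h, while the other measures of all 24 h libraries lie above those of all 3 h libraries.

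The shift reached through the whole distribution of widths. The 10th percentile of width was 186 ± 6.06 bp at 24 h and 155 ± 6.83 bp at 3 h (SD, n = 4 each). The 90th percentile was 928 ± 36.9 bp at 24 h and 772 ± 47.0 bp at 3 h, a rise of 20.3%. The shortest peak of a list was 154 to 163 bp at 24 h and 129 to 136 bp at 3 h. Each of these 3 measures separated the times without overlap in both lines, with an exact permutation p of 0.0556. Peaks shorter than 163 bp were 0 to 2.73% of the 24 h lists and 10.2 to 17.8% of the 3 h lists. The shortest peak of replicate 1 of DND41 at 24 h has 163 bp, so its 0 was fixed by that cut. The other 24 h lists start little below it, so their low shares follow largely from where each list starts.

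To compare the same sites, peaks of the 8 lists that overlapped by 1 base or more were joined, which gave 98408 regions. All 8 libraries had a peak at 18497 of them, and a single library at 42305. In the 18497 common regions the median number of bases covered was 681 and 660 in DND41, with 696 and 667 in MOLT4 at 24 h, against 591 and 477 in DND41, with 553 and 571 in MOLT4 at 3 h. The lowest 24 h library exceeded the highest 3 h library. The log2 ratio was 0.31 (SE 0.08), or 23.7% over both lines, 26.3% in DND41 and 21.3% in MOLT4 (exact permutation p = 0.0556). The same sites were measured in every library for this value.

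The median common peak reached further out at both ends at 24 h. Over the 16169 regions with exactly 1 peak in every library, the start lay a median of 41.5 bp further out and the end 40.5 bp further out at 24 h in DND41, and 32.5 and 33.5 bp further out in MOLT4. Midpoints moved by a median of -0.75 bp in DND41 and 0 bp in MOLT4. The 24 h peak was wider in 83.5% of these regions in DND41 and in 78.9% in MOLT4. It was longer at both ends in 60.2% in DND41 and 52.2% in MOLT4, and shorter at both ends in 6.79% in DND41 and 8.42% in MOLT4. Common regions were also less often split. The share holding at least 2 peaks of a library was 2.14 to 3.25% at 24 h and 4.53 to 5.45% at 3 h.

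The gain was then followed across sites of different breadth. Common regions were divided into 10 deciles by their mean width over the 8 libraries. In the narrowest decile the median was 298 ± 7.80 bp at 24 h and 253 ± 29.3 bp at 3 h (SD, n = 4 each), a rise of 18.4% and 45.0 bp apart, and the times met at 1 library, since replicate 1 of DND41 at 3 h had 290 bp and the lowest 24 h library also had 290 bp. In the fourth decile it was 554 ± 14.2 bp at 24 h and 451 ± 42.0 bp at 3 h, a rise of 23.2%. In the broadest it was 1268 ± 14.7 bp at 24 h and 1129 ± 68.6 bp at 3 h, a rise of 12.4% and 139 bp apart. In bases the difference was thus larger in the broadest decile than in the narrowest, and in percent it was highest in the fourth and lowest in the broadest. The change of the narrowest decile relative to the broadest was 0.07 on the log2 scale, not larger than the spread (SE 0.06; exact permutation p = 0.167).

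**Figure D2:**
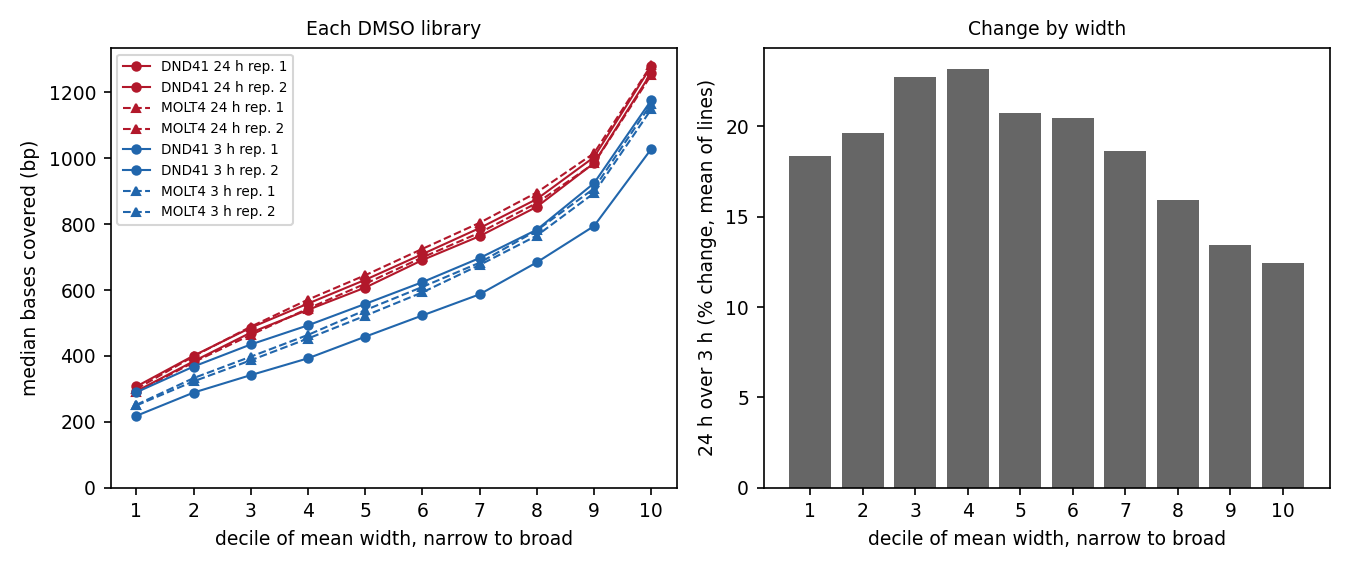
Left, median bases covered per common region in each DMSO library (red 24 h, blue 3 h, solid lines DND41, dashed lines MOLT4) by decile of mean width. Right, percent change of 24 h over 3 h, averaged over both lines. From the second to the tenth decile all 24 h libraries lie above all 3 h libraries, and the change runs between 12.4% and 23.2%.

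Once each library was centred on its own median, few single regions stood out. Log2 bases covered were fitted in limma with line as covariate, and 4 of the 18497 common regions were wider at 24 h (0.0216% of those tested) and 1 narrower (0.00541%) at a Benjamini-Hochberg adjusted p under 0.05. At an unadjusted p under 0.05, which many of 18497 regions pass by chance, there were 1254 wider and 2823 narrower. Both are relative to the median of each library, and the median of all centred changes was -0.07 on the log2 scale. Without centring, 1186 regions were wider (6.41%) and 3 narrower (0.0162%), with the median of all regions at 0.23 on the log2 scale. At an unadjusted p under 0.05 there were then 5560 wider and 92 narrower. The lines differed at far more of the same regions, with 449 wider in MOLT4 (2.43%) and 468 wider in DND41 (2.53%) after centring. The median size of the centred change was not smaller for time, at 0.19 on the log2 scale, against 0.17 for line. Its 95th percentile was smaller for time, at 0.60, against 0.78 for line. The calls for time were fragile. They fell to 0 in both directions without any one of the 4 libraries of 24 h. Without any one of the 4 libraries of 3 h no region was narrower, and 1 to 21 were wider.

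Of the 4 wider regions, 3 lay on chromosome 17. The region from 75924338 to 75925660 covered 1107 and 1152 bp in DND41 and 1108 and 993 bp in MOLT4 at 24 h, against 435 and 370 bp in DND41 and 390 and 360 bp in MOLT4 at 3 h. Its centred log2 change was 1.18 (SE 0.10; limma, adjusted p = 0.00742), and the narrowest 24 h value exceeded the widest 3 h value more than 2 times over. The region from 41444312 to 41446822 covered 1987 and 1355 bp in DND41 and 1933 and 2117 bp in MOLT4 at 24 h, against 687 and 388 bp in DND41 and 538 and 707 bp in MOLT4 at 3 h (centred log2 change 1.38, SE 0.15; limma, adjusted p = 0.0220). The region from 4850859 to 4853536 covered 2245 and 2066 bp in DND41 and 1946 and 1735 bp in MOLT4 at 24 h, against 548 and 498 bp in DND41 and 848 and 826 bp in MOLT4 at 3 h (centred log2 change 1.28, SE 0.15; limma, adjusted p = 0.0397).

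The other wider region was on chromosome 2 from 202097838 to 202099275. It covered 1151 and 1170 bp in DND41 and 1018 and 903 bp in MOLT4 at 24 h, against 469 and 433 bp in DND41 and 426 and 444 bp in MOLT4 at 3 h (centred log2 change 0.95, SE 0.10; limma, adjusted p = 0.0220). The 1 narrower region, on chromosome 12 from 93322344 to 93323559, covered 896 and 963 bp in DND41 and 835 and 775 bp in MOLT4 at 24 h, against 1207 and 982 bp in DND41 and 1174 and 1135 bp in MOLT4 at 3 h. In DND41 the higher 24 h value was close to the lower 3 h value. Its centred log2 change was -0.68 (SE 0.08; limma, adjusted p = 0.0397), and without centring it was -0.38 (limma, adjusted p = 0.0564). In all 5 regions the difference between the time effects of the lines missed the threshold (limma, adjusted p of 0.477 to 0.996).

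Few regions had a peak in every library of a time and in none of the other time, when both lines had to show it. A peak in all 4 libraries of 24 h and none of 3 h was found at 79 regions, 0.0803% of the 98408, called 24 h-only below. The reverse, called 3 h-only, was found at 215 regions, 0.218%. Since time chose these regions, their counts are a description and not a test. For comparison, 4553 regions (4.63%) had a peak in all 4 MOLT4 and no DND41 DMSO library, and 2408 (2.45%) the reverse. Those regions needed calls in a single line, and the 24 h-only and 3 h-only regions in both lines. The counts therefore do not show whether time or line mattered more. Of 9673 regions found in exactly 4 of the 8 libraries, 7837 were in 2 of each time. The 4553 and 2408 regions of a single line are among these 7837, called balanced below, since each line gave 2 libraries of each time.

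**Figure D3:**
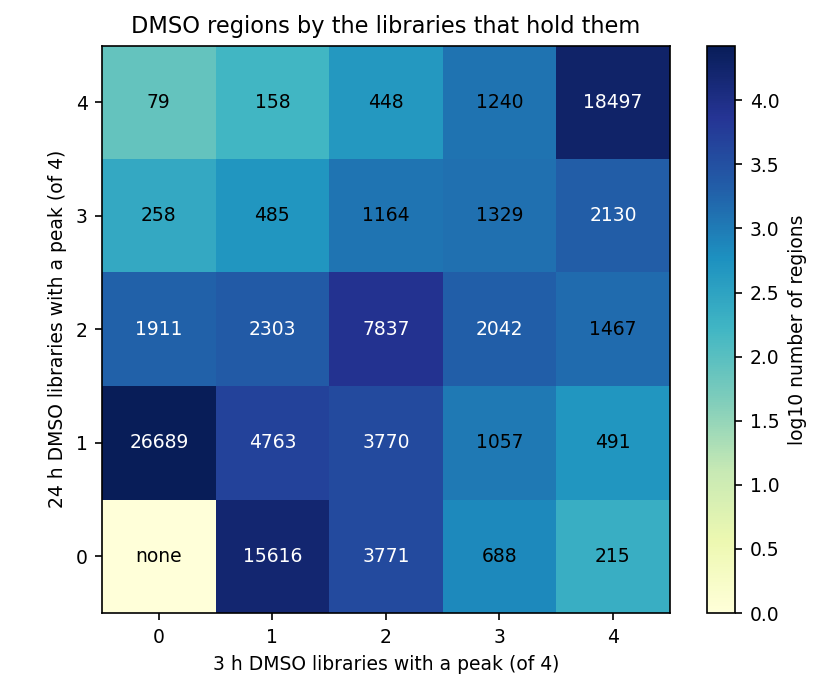
Number of merged DMSO regions by how many of the 4 libraries of 24 h (vertical axis) and of the 4 of 3 h (horizontal axis) held a peak, with colour on a log10 scale. The corners hold 79 regions found only at 24 h, 215 found only at 3 h and 18497 found in all 8.

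Just inside and outside this definition the numbers grew steeply. At 24 h, 258 regions had a peak in 3 of 4 libraries and none at 3 h, and 158 were found in all 4 of 24 h and 1 of 3 h. For 3 h, 688 regions had a peak in 3 of 4 libraries and none at 24 h, and 491 were found in all 4 of 3 h and 1 of 24 h. Which set was larger turned on the shortest peaks. When peaks under 163 bp were left out of every list, 135 regions were 24 h-only and 70 were 3 h-only. With lists shortened to their 39117 widest peaks, 103 were 24 h-only and 145 were 3 h-only. Of the 215 regions of 3 h-only, 121 (56.3%) had at least 1 peak shorter than 154 bp, the shortest peak of any 24 h list, and in 3 all 4 peaks were shorter.

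Within 1 line the sets were larger. In DND41, 1432 regions had a peak in both libraries of 24 h and neither of 3 h, 1.92% of the regions found in that line and 4.92% of the 29084 found in both 24 h libraries, and 3051 showed the reverse (4.09%), or 9.63% of the 31698 found in both 3 h libraries. In MOLT4 there were 1162 (1.92%), or 3.84% of 30274, and 3318 of the reverse (5.49%), or 9.57% of 34678. The regions called 24 h-only in DND41 and in MOLT4 had 79 in common, 5.52% of the DND41 set and 6.80% of the MOLT4 set. For 3 h-only the 215 in common were 7.05% of the DND41 and 6.48% of the MOLT4 set. Over all 98408 regions the single-line sets were 1.46% and 1.18% for 24 h-only in DND41 and MOLT4, and 3.10% and 3.37% for 3 h-only. Regions that went opposite ways were fewer, with 16 that were 24 h-only in MOLT4 and 3 h-only in DND41, and 14 the other way round.

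Regions chosen in 1 line were then scored in the other, which had no part in the choice. At the 1432 regions of DND41 24 h-only, MOLT4 libraries had a peak in 30.2 and 28.3% at 24 h and in 22.8 and 21.4% at 3 h. At the 1162 regions of MOLT4 24 h-only, DND41 libraries had a peak in 36.1 and 34.9% at 24 h and in 32.6 and 19.6% at 3 h. Both scored lines were thus higher at 24 h, without overlap. At the 3051 regions of DND41 3 h-only, MOLT4 libraries had a peak in 27.1 and 27.0% at 24 h and in 42.9 and 37.7% at 3 h. At the 3318 regions of MOLT4 3 h-only, DND41 libraries had a peak in 30.2 and 28.5% at 24 h and in 46.8 and 35.1% at 3 h. The 4 differences were 7.19 and 9.38 points for 24 h-only and -13.2 and -11.6 points for 3 h-only. Regions found in 1 library of each time of the choosing line gave -3.71 points in MOLT4 and -3.63 in DND41. With 2 libraries against 2 no p under 0.333 is possible.

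The ACBI-1 libraries, which also had no part in choosing the sites, gave the same order. A peak was found at 41.8 and 34.2% of the 79 regions of 24 h-only in DND41 and at 46.8 and 44.3% in MOLT4 after 24 h of ACBI-1, against 2.53 and 15.2% in DND41, with 16.5 and 17.7% in MOLT4 after 3 h. The groups did not overlap, at 41.8 ± 5.47% for 24 h and 13.0 ± 7.04% for 3 h (SD, n = 4 each), a difference of 28.8 points (SE 3.76; exact permutation p = 0.0556, the smallest possible). The ACBI-1 lists held 28751 to 33870 peaks at 24 h and 26145 to 31380 at 3 h, fewer than any DMSO list. The list of 26145 peaks is that of the library with 2.53%. With all 16 lists at equal length, and the regions chosen again from them, the difference at 24 h-only regions was 14.1 points. At the 215 regions of 3 h-only the values were 15.3 ± 3.24% after 24 h and 25.8 ± 3.65% after 3 h of ACBI-1 (SD, n = 4 each), a difference of -10.5 points (SE 2.76; exact permutation p = 0.0556), and -18.6 points at equal length. Most of the 7837 balanced regions belong to a single line. At balanced regions the values were 22.2 ± 8.16% after 24 h and 29.6 ± 11.8% after 3 h. This difference of -7.37 points (SE 2.19, exact permutation p = 0.0556) also came without overlap in either line, and was -11.4 points at equal length. The order found at 3 h-only regions was thus also that of the balanced regions.

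The changes were then set against those at the balanced regions. The balanced regions are an unlike yardstick, since most were called in a single line and the time-only regions in both. They were also wider, at a median of 355 bp, against 303 bp for 24 h-only and 206 bp for 3 h-only. The change at 24 h-only minus that at balanced regions was 36.2 points (SE 2.26), and the groups did not overlap in either line (exact permutation p = 0.0556). It was 25.5 points with lists of equal length, without a change in p. The change at 3 h-only minus that at balanced regions was -3.10 points (SE 2.03; exact permutation p = 0.333). The lines differed in sign here, with 1.13 points and overlapping times in MOLT4, and -7.33 points without overlap in DND41. With lists of equal length the value was -7.22 points, -6.43 in MOLT4 and -8.01 in DND41 (exact permutation p = 0.111). Region by region, 48 of the 79 were found in more ACBI-1 libraries of 24 h than of 3 h, and 10 in fewer. These were 60.8% and 12.7%, against 13.6% and 35.1% of the balanced regions. Of the 215, 86 (40.0%) were found in more ACBI-1 libraries of 3 h than of 24 h, and 26 (12.1%) in fewer, close to the shares of the balanced regions. No ACBI-1 library had a peak at 18 of the 79 (22.8%) and at 84 of the 215 (39.1%), against 23.2% of the balanced regions. DMSO and ACBI-1 libraries of 1 time carry the same tag, so these values do not separate hours in culture from preparation or calling.

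**Figure D4:**
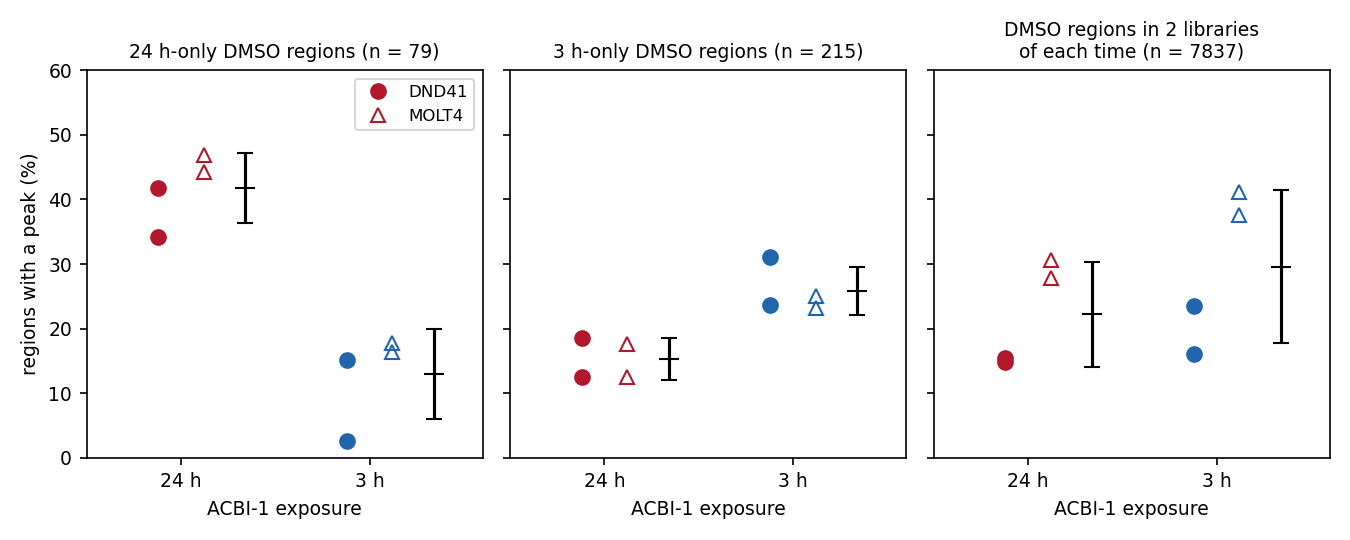
Percent of DMSO-chosen regions with a peak in each ACBI-1 library after 24 h or 3 h, for the 24 h-only, the 3 h-only and the balanced regions. Each point is 1 library, filled circles are DND41 and open triangles MOLT4, and bars are the mean ± SD of 4 libraries. At 24 h-only regions the lowest 24 h library is at 34.2% and the highest 3 h library at 17.7%.

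Time-only regions were narrow sites. The 24 h-only regions had a median width of 303 bp (quartiles 269 and 366 bp), at about the 34.3rd percentile of width within their lists. The 3 h-only regions had a median width of 206 bp (quartiles 172 and 256 bp), at about the 23.6th percentile. Regions in 2 libraries of each time had a median of 355 bp, and those in all 8 had 602 bp. The widths by library were 262 to 318 bp in the median for the 24 h-only regions in the 24 h lists, and 168 to 203 bp for the 3 h-only regions in the 3 h lists.

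The broadest 24 h-only region within its lists lay on chromosome 9 from 140045106 to 140046046. Its peaks at 24 h were 798 and 725 bp in DND41 and 648 and 400 bp in MOLT4, and it was found in all 4 ACBI-1 libraries of 24 h and in none of 3 h. On chromosome 5 from 180075966 to 180076781 the peaks were 747 and 604 bp in DND41 and 432 and 262 bp in MOLT4. On chromosome 22 from 48493632 to 48494811 they were 954 and 215 bp in DND41 and 329 and 613 bp in MOLT4. Replicates of 1 line could thus differ widely in width where each had the peak. The next were on chromosome 3 from 108541084 to 108541743, with 464 ± 181 bp, and on chromosome 7 from 33079101 to 33079743, with 436 ± 149 bp (SD, n = 4 each).

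Among 3 h-only regions the broadest within its lists was on chromosome 7 from 125108281 to 125109035. Its peaks at 3 h were 652 and 410 bp in DND41 and 429 and 270 bp in MOLT4. Of the ACBI-1 libraries, 3 of 24 h and 4 of 3 h had a peak there. The region on chromosome 8 from 94997736 to 94998516 had peaks of 194 and 448 bp in DND41 and 569 and 577 bp in MOLT4 at 3 h. It was found in none of the ACBI-1 libraries of 24 h and in 2 of 3 h. Those on chromosome 8 from 47709067 to 47709727, on chromosome 13 from 61699644 to 61700137 and on chromosome 12 from 42036473 to 42037077 had mean peaks of 395, 356 and 384 bp at 3 h. The region on chromosome 13 was in 4 ACBI-1 libraries of 24 h and 1 of 3 h, against its direction in DMSO.

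The 2 kinds of time-only region differed most on a few small chromosomes. Chromosomes 19 and 22 held 9 each of the 79 regions of 24 h-only, 11.4% each, and chromosome 17 held 6, or 7.59%. None of the 215 regions of 3 h-only lay on these 3 chromosomes, which held 1.99%, 0.971% and 2.57% of all DMSO regions. Chromosomes 17, 19 and 22 are known as gene-rich. The 3 h-only regions on chromosomes 2 and 3 were 9.77% and 9.30% of 215, near the 9.69% and 7.72% of all regions there. Chromosome 13 held 11 (5.12%, against 3.87% of all regions) and no 24 h-only region. On chromosomes 16, 17, 19, 20 and 22, a group chosen after the values were seen, lay 39.2% of 24 h-only and 2.79% of 3 h-only regions, against 9.32% of all regions. Without peaks under 163 bp the values were 32.6% and 4.29%, against 9.66% of all regions.

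**Figure D5:**
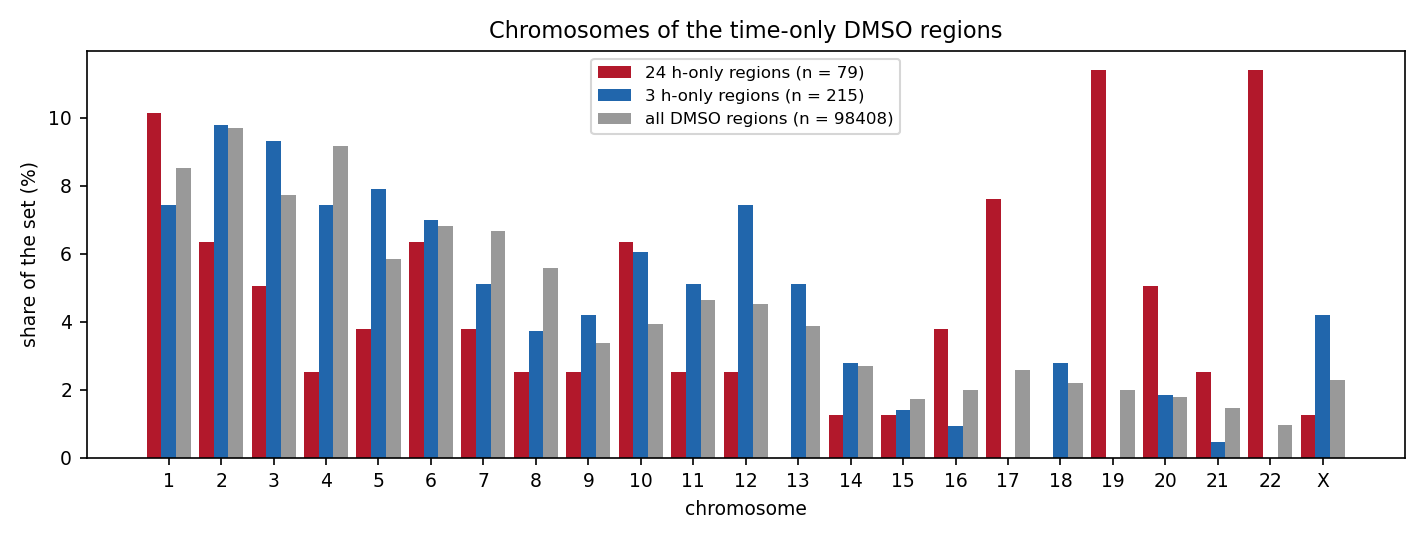
Percent of the 79 regions of 24 h-only, the 215 of 3 h-only and all 98408 DMSO regions that lie on each chromosome. Bars of 24 h-only regions are tallest on chromosomes 19 and 22, at 11.4%, where there are none of 3 h-only.

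Time-only regions were scattered along the chromosomes. None had another of its kind within 50 kb, and 10 of 79 and 12 of 215 had one within 1 Mb. The 24 h-only regions lay nearer to stable sites, with a median gap of 16.9 kb to the nearest region found in all 8 libraries, and 20 of 79 (25.3%) within 5 kb. For the 3 h-only regions the median gap was 54.3 kb, 30 of 215 (14.0%) lay within 5 kb and 116 (54.0%) lay more than 50 kb away. Balanced regions had a median gap of 52.1 kb, with 6.85% within 5 kb. These gaps are a description and were not tested.

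On chromosomes 22, 19 and 17 the full lists leaned the same way as the time-only regions, which are part of the same lists. Chromosome 22 held 1.29 and 1.28% of the peaks in DND41, with 1.55 and 1.61% in MOLT4 at 24 h, against 1.09 and 1.06% in DND41, with 1.17 and 1.28% in MOLT4 at 3 h. Its share rose by a log2 ratio of 0.31 (SE 0.04; limma over 23 chromosomes, adjusted p = 5.2e-05). The times were separate within each line. Chromosome 19 rose by 0.23 (SE 0.05; limma, adjusted p = 0.00291), to 3.30 ± 0.480% at 24 h, against 2.80 ± 0.226% at 3 h (SD, n = 4 each). Chromosome 17 rose by 0.16 (SE 0.04; limma, adjusted p = 0.0151), with shares of 3.01 and 3.09% in DND41, with 4.37 and 4.41% in MOLT4 at 24 h, against 2.97 and 2.83% in DND41, with 3.56 and 3.89% in MOLT4 at 3 h.

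These were 13.0% of chromosomes higher, and 1 chromosome, or 4.35%, was lower. The X chromosome held 2.47 and 2.54% in DND41, with 2.63 and 2.58% in MOLT4 at 24 h, against 3.09 and 3.23% in DND41, with 2.90 and 2.86% in MOLT4 at 3 h, and the times did not overlap. Its log2 ratio was -0.24 (SE 0.04; limma, adjusted p = 0.000768). The time-only regions leaned the same way on X. It held 1 region of 24 h-only (1.27%) and 9 of 3 h-only (4.19%), against 2.29% of all regions and 3.03% of those found in all 8 libraries. Without peaks under 163 bp the log2 ratios were 0.25 for chromosome 22 and -0.25 for X, still without overlap in DND41. Under that setting chromosome 19 had 0.12 and chromosome 17 had 0.09 (exact permutation p = 0.222 for both), and the times overlapped in DND41. These chromosome shares were tested after other results of the lists were known.

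Bins of 1 Mb gave few calls. Of 2563 bins of 1 Mb with a mean of at least 5 peaks, 9 (0.351%) held relatively more peaks at 24 h and 2 (0.078%) fewer, at an adjusted p under 0.05 in limma with line as covariate. The bin on chromosome 21 from 11000001 to 12000000 had 13 and 12 peaks in DND41, with 12 and 7 in MOLT4 at 24 h, against 3 and 4 in DND41, with 4 and 3 in MOLT4 at 3 h (log2 ratio 1.43, SE 0.23; limma, adjusted p = 0.0243). Adjoining bins on chromosome 4 from 161000001 to 162000000 and from 162000001 to 163000000 had log2 ratios of 0.98 and 1.04 (SE 0.19 and 0.18; limma, adjusted p = 0.0358 and 0.0277). In DND41 the bin from 161000001 had 23 and 27 peaks at 24 h, against 12 and 7 at 3 h. In MOLT4 it had 10 and 16, against 10 and 7, so the times met. The bin from 162000001 had 22 and 16 against 6 and 5 in DND41, and 17 and 18 against 13 and 13 in MOLT4. The bin on chromosome 10 from 82000001 to 83000000 had 13 and 16 peaks in DND41, with 16 and 11 in MOLT4 at 24 h, against 24 and 22 in DND41, with 31 and 25 in MOLT4 at 3 h (log2 ratio -0.79, SE 0.13; limma, adjusted p = 0.0243). The bin on chromosome 3 from 66000001 to 67000000 had a log2 ratio of -0.58 (SE 0.12; limma, adjusted p = 0.0402). No bin was called without either DND41 library of 3 h or without replicate 1 of DND41 at 24 h, and without any one of the other 5 libraries 1 to 18 bins held more and 0 to 5 fewer.

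Replicates set the scale for these differences. In MOLT4 the 2 libraries of 24 h shared 64.2% of the regions found in either, the 2 of 3 h shared 69.2%, and libraries of different times shared 60.4 to 64.1%. In DND41 the 2 libraries of 3 h shared 62.0%, but the 2 of 24 h shared 49.2%, less than the 49.3 to 54.0% shared across times. Time thus separated the DND41 libraries no further than replicates of 24 h were from each other. Those 2 libraries also held the most regions found nowhere else among DMSO libraries, 11314 and 8438, against 4962 and 4233 at 3 h. Libraries of different lines shared 39.2 to 47.8%.

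The vehicle difference between times was then set beside that under ACBI-1. Of 83684 regions over the 8 ACBI-1 libraries, 133 (0.159%) were found in all 4 of 24 h and none of 3 h, and 345 (0.412%) showed the reverse. In the 12037 regions found in all 16 libraries, median bases covered rose by a log2 ratio of 0.21 with ACBI-1 and 0.26 with DMSO. The difference of -0.05 stayed within the spread (exact permutation within line and treatment, p = 0.762). Median width of the whole list changed by 0.05 with ACBI-1 and 0.31 with DMSO, a difference of -0.26 (exact permutation p = 0.103). Covered bases changed by 0.23 with ACBI-1 and 0.25 with DMSO, a difference of -0.02 (exact permutation p = 0.926).

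Region by region, no time effect of ACBI-1 was distinguished from that of DMSO. With all 16 libraries in 1 limma model, 0 of the 12037 regions had a different time effect at an adjusted p under 0.05. At an unadjusted p under 0.05, which many of 12037 regions pass by chance, 401 were higher and 406 lower. In that model 33 regions (0.274%) were wider and 20 (0.166%) narrower at 24 h with DMSO, and none was called with ACBI-1 (0.0% in either direction), where 609 were wider and 845 narrower at an unadjusted p under 0.05. Without centring, 3 were wider and 0 narrower with ACBI-1, and 1303 wider and 4 narrower with DMSO. Which arm held the calls depended on the model. When libraries of the same replicate number were paired, all calls lay with ACBI-1 and none with DMSO. The median size of the centred time effect was 0.22 with ACBI-1 and 0.15 with DMSO on the log2 scale. The effects had the same sign in 76.8% of regions, with a correlation of 0.71 across the 12037 regions. Regions are not independent replicates, and libraries of 1 time share the tag in both arms.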

How the data were processed

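ATAC-seq peak lists of 8 DMSO and 8 ACBI-1 libraries were used, grouped by their titles. Per the submitters' processing notes the build was hg19 and the tools included MACS2 2.1.1.2016030, Bowtie2, SAMtools and Picard. Their roles and settings are not given in the sources used here. Each deposited file lists the chromosome, start, end and name of the peaks of 1 library, without heights, summits, p-values or read totals, so depth is unknown and no counting interval is given.

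Only peaks of chromosomes 1 to 22 and of X entered the tests, and those sharing at least 1 base were merged (numpy 2.4.6, pandas 2.3.3). Coordinates are hg19, counted from 1. Gene tables on another build were not used here, so no gene or sequence is given for a region. Values per library were compared by two-sided exact permutation of the time labels within each line. Log2 bases covered per region, centred on each library's median, and log2 peaks per 1 Mb bin (pseudocount 1, relative to list length) were fitted with limma 3.58.1 (R 4.3.3) with line as covariate, trend and Benjamini-Hochberg adjustment over all features. The width fit was tested on simulated data, and merging and the permutation test on small constructed cases; the bin and chromosome fits were not simulated. Named regions were the 5 broadest time-only regions of each kind by mean width percentile, the 5 largest width changes (times not overlapping within either line) and the 3 largest bin changes in each direction among calls, or all where fewer. Members, lists and tests were chosen with earlier results of these data known. Chromosome shares, balanced regions and their alternatives were added after the files were seen.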

Additional observations from a re-analysis of the deposited data

Results flagged for a closer look

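The change of chromosome shares between 24 h and 3 h of DMSO differed between the lines. An interaction of time and line in limma over the 23 chromosomes had an adjusted p under 0.05 for 15 of them. Among the chromosomes called for time, the time effect in MOLT4 minus that in DND41 was 0.16 on the log2 scale for chromosome 17 (limma, adjusted p = 0.00226), 0.21 for chromosome 19 (limma, adjusted p = 0.000831) and 0.19 for X (limma, adjusted p = 0.00169). Chromosomes 17 and 19 rose more in MOLT4 and X fell less in MOLT4. For chromosome 22 the difference was 0.11 (limma, adjusted p = 0.134). Shares of 1 list sum to a whole, so the 23 values are not independent.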

How the results depend on the processing

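Without read depth, an absent peak cannot be told from one too weak to be called. Exchanges within lines allow no p under 0.0556 for values per library, so an unchanged side of the threshold says nothing about stability there. Covered bases, median width and width at common regions kept their direction under every alternative run. In an unstratified test over 70 splits their log2 ratios of 0.25, 0.31 and 0.31 had exact permutation p = 0.0286. With peaks under 163 bp left out, median width had a log2 ratio of 0.15 (exact permutation p = 0.111) and peak number turned to 0.15, and lists of equal length fix it. Leaving out each library in turn gave -0.0928 to 0.0231 for the log2 ratio of peak number, 0.15 to 0.36 for covered bases, 0.26 to 0.36 for median width and 0.23 to 0.39 for width at common regions, and the 0.0231 came without replicate 1 of DND41 at 3 h.

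The regions of 24 h-only and 3 h-only numbered 135 and 70 without peaks under 163 bp, and 980 and 2451 when at least 3 of 4 libraries of 1 time and at most 1 of the other were asked for. With 1 library fewer to satisfy they were 92 to 156 and 279 to 471. Scored in ACBI-1 libraries, the differences were 25.6 to 32.0 and -12.3 to -8.60 points without each ACBI-1 library, and 14.1 and -18.6 points with 16 lists of equal length.

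Regions called wider and narrower at 24 h numbered 1186 and 3 without centring, 10 and 0 after quantile normalization, 101 and 34 by the widest peak, and 2 and 3 over regions with exactly 1 peak in every library. Without each library they were 0 to 21 and 0. Bins called with more and fewer peaks numbered 32 and 30 of 594 at 5 Mb (10.4% in all, against 0.429% at 1 Mb), 7 and 6 at 250 kb, and 4 and 1 without a minimum, and without each library 0 to 18 and 0 to 5. Chromosomes called numbered 2 to 5 higher and 1 to 3 lower without each library. Beyond these, the cause of the differences was not tested.

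Replicate numbers shared by the times did not pair the libraries, since deviations of same-numbered libraries correlated at 0.02 in DND41 and -0.04 in MOLT4. With the replicate block 2 regions were wider and 0 narrower, 8 bins had more and 1 fewer peaks, 2 chromosomes were higher and 1 lower (chromosome 17 then had a limma adjusted p of 0.0557), and the permutation p was 0.125, the smallest that 16 exchanges allow, for the 3 width and coverage values. In the model of 16 libraries the block gave 0 regions called with DMSO, and 73 wider and 93 narrower with ACBI-1 (limma).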
